A study of Mus musculus with 2 samples.

Results

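The genes studied here were 10 components and targets of JAK-STAT signalling, namely Socs1, Socs2, Socs3, Cish, Stat3, Stat5a, Stat5b, Stat6, Jak3 and Pim1, in mouse bone marrow progenitors with or without induced excision of Cebpa. They were taken by gene symbol as a named pathway, with earlier results of these data known. Each of the 10 matched 1 row of the deposited table of 23309 rows. The authors tested all 10, and each exceeded 10 FPKM in both conditions (fragment counts adjusted for transcript length and library size). The treated cells received 5 nM 4-hydroxytamoxifen (4OHT) for 72 h, and the control cells received its ethanol vehicle for the same time. Both carried Cebpa alleles flanked by loxP sites and the tamoxifen-activated recombinase CreER (Cebpaf/f;CreER), and both were lineage-depleted marrow cells transduced with MIGR1 retroviruses for HA-Hoxa9 and Flag-Meis1 and cultured with interleukin-3. Cebpa encodes the myeloid transcription factor C/EBPα. There was no arm with 4OHT and intact Cebpa, so effects of the drug, of Cre and of Cebpa excision cannot be told apart. The promoter that drives CreER, and whether the cells were 1 clone, are not stated. Each condition has 1 deposited sample that joins 2 replicates, which leaves a single value per gene on either side and no replicate error.

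In this pathway a cytokine receptor without enzymatic activity of its own binds Janus kinases (JAKs), which phosphorylate STAT proteins. The STATs then pair, enter the nucleus and switch on target genes. Among those targets are the SOCS proteins and CIS (encoded by Cish), which bind receptors or JAKs and dampen the signal. In blood progenitors, interleukin-3 signals mainly through JAK2 and the STAT5 proteins, and Pim1, which encodes a serine/threonine survival kinase, is a further well-known STAT target.

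After 4OHT, 3 of the 10 genes passed the authors' test (status OK and q under 0.05 in the authors' deposited table) and 7 did not. Socs3 fell to 54.4% of its vehicle level, and Socs2 and Stat5a rose 1.47-fold and 1.39-fold. In the table as a whole 5.91% of tested rows were called, 2.8% higher and 3.11% lower. None of the 10 changed by 2-fold or more. Of the 7 genes that were not called, 5 had a higher value after 4OHT than with vehicle and 2 had a lower one. The 10 had a median log2((4OHT FPKM + 1)/(vehicle FPKM + 1)) of 0.18, against 0.00 over the 10989 rows of at least 1 FPKM, which is given as a description without a test.

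Promoters of SOCS genes are shown as a description, and they include no gene that rose. SOCS promoters are textbook sites of STAT binding, and a common STAT element is TTCNNNGAA, which reads the same on both strands. The 250 bases before the RefSeq start (build GRCm38.p6) are printed for the gene that fell, Socs3 (chr11:117969367-117969616, minus strand), and for a pair that did not pass the test, Cish (chr9:107296409-107296658, plus strand) and Socs1 (chr16:10785537-10785786, minus strand). Capitals mark a TTCNNNGAA match. No window for Socs2 was in the table used.
Socs3: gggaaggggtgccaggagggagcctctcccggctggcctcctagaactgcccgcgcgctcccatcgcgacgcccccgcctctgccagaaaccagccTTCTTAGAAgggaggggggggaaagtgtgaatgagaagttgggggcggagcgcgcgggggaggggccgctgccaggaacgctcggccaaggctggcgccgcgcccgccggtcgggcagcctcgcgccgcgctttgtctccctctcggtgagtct
Cish: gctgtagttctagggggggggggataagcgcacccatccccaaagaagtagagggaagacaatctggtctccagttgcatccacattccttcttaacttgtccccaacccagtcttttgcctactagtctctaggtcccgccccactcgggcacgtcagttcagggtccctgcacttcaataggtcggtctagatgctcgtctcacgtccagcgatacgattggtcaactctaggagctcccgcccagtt
Socs1: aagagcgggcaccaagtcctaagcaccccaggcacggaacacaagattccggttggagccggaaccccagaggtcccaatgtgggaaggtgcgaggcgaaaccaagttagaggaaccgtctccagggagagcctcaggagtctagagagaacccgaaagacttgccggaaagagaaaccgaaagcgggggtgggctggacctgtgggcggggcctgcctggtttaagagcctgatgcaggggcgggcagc

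The Socs3 window held 1 match, TTCTTAGAA, at 154 to 146 bases before the start, and the Cish and Socs1 windows held none. Windows were found for 9 of the 10 genes, 12 in all because some genes have several starts. Of those 12 windows, that of Socs3 held the element, as did 7.02% of 32851 mouse promoter windows of the same length. The C/EBP-type element TTGCNNAA, searched on both strands, was in none of the 12 and in 9.56% of all windows. With 12 windows, counts of 1 and 0 cannot be told apart from these shares, and no link to the direction of change was tested. The start used for Socs3 is 1 of several annotated starts, and these counts describe letters in a short window and not binding.

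The label of the 4OHT sample was checked first on the targeted gene. Cebpa had 42.8 FPKM after 4OHT, against 109 FPKM with vehicle, which left 39.2% of the vehicle level (q = 0.00165 in the authors' deposited table). The excised part of the gene is not stated in the labels, so the share of alleles that kept Cebpa cannot be read from this level. Markers of the labelled cell type were present, since all 6 progenitor markers (Kit, Cd34, Flt3, Gata2, Myb and Ptprc) exceeded 1 FPKM. They summed to 836 FPKM after 4OHT and 567 FPKM with vehicle, and 4 of them rose. Late neutrophil markers, 2 of 7 at 1 FPKM or more, summed to 5.54 FPKM after 4OHT and 19.9 FPKM with vehicle, with S100a8 and S100a9 lower and Retnlg at 0 in both. Mast cell markers summed to 978 FPKM after 4OHT and 565 FPKM with vehicle, nearly all of it Cpa3, with 2 of 5 at 1 FPKM or more and Mcpt4 at 0. Of these markers Cpa3 alone was called, higher at 975 FPKM after 4OHT, against 562 FPKM with vehicle (q = 0.00165 in the authors' deposited table). Megakaryocyte markers, 3 of 3 at 1 FPKM or more, summed to 100.4 FPKM after 4OHT and 52.4 FPKM with vehicle, where Itga2b alone was called higher (88.8 FPKM after 4OHT, against 40.3 FPKM with vehicle) and Pf4 and Gp9 were not called. Macrophage markers, 3 of 7 at 1 FPKM or more, summed to 155 FPKM after 4OHT and 185 FPKM with vehicle, mostly Emr1, which was not called. Cd68 among them fell to 22.7 FPKM after 4OHT, against 34.6 FPKM with vehicle, and Mrc1, under 1 FPKM, rose. Endothelial and stromal markers, 2 of 4 at that level, summed to 202 FPKM after 4OHT and 221 FPKM with vehicle, mostly Pecam1, which blood cells also express, and Pdgfrb rose to 13.3 FPKM after 4OHT, against 6.62 FPKM with vehicle. T cell, B cell and NK cell markers and the 3 erythroid markers with a row of their own were all under 1 FPKM, and Cd3e, Cd3g, Cd4, Ms4a1 and Pax5 were at 0 in both conditions. The part of these shifts in the results below was not tested, and in bulk RNA fewer cells of a type and less RNA per cell cannot be told apart.

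Among the kinases, Jak3 pairs with the common gamma chain of the interleukin-2 receptor family. It had 17.3 FPKM after 4OHT and 14.2 FPKM with vehicle, a log2 ratio of 0.29 (q = 0.571 in the authors' deposited table). Its deposited locus on mm9 (chromosome 8, 74200282 to 74214476) is shared with Insl3, which had 2.19 FPKM after 4OHT and 1.35 FPKM with vehicle. How reads were divided between these overlapping genes is not stated, so their reads may not be told apart. The other JAK genes were not called either. Jak1, which serves interferon, interleukin-6 family and gamma chain receptors, had the highest level of the family, with 48.97 FPKM after 4OHT and 41.9 FPKM with vehicle. Jak2, the kinase of the interleukin-3, erythropoietin and thrombopoietin receptors, had 11.2 FPKM after 4OHT and 13.5 FPKM with vehicle. Tyk2, which acts with interferon and interleukin-12 receptors, had 16.1 FPKM after 4OHT and 17.3 FPKM with vehicle. Jak3 thus made up 18.5% of summed JAK FPKM after 4OHT and 16.3% with vehicle.

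Of the 4 STAT genes studied, Stat5a alone was called, and neither of the 2 further STAT genes described here was. Stat5a and Stat5b encode near-identical proteins that carry the interleukin-3 signal. Stat5a rose to 28.1 FPKM after 4OHT, against 20.3 FPKM with vehicle, with a log2 ratio of 0.47 and q = 0.0499 in the authors' deposited table. That was the largest q under 0.05 in the table, so the call lies at the threshold itself. The deposited p-values come in steps of 5e-05. That of Stat5a was 0.00295 in the authors' deposited table, and the next step, 0.003, had a q of 0.0506, so 1 step decides its call. The q of 0.00165 given for other genes belongs to the smallest p of the table, 1 step, and is a floor. At q under 0.01, Socs3 alone of the 10 genes was called, against 3.84% of tested rows. Stat5b had 25.9 FPKM after 4OHT and 20.8 FPKM with vehicle, a log2 ratio of 0.32 that did not pass (q = 0.399). Both genes had their higher value after 4OHT, and whether their changes differ from each other was not tested. Together they reached 54.0 FPKM after 4OHT (38.7% of the summed FPKM of the 6 STAT genes described) and 41.1 FPKM with vehicle (32.9%). The genes are paralogs, and the treatment of reads that match both is not stated in the labels.

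Stat3, the main STAT of interleukin-6 and G-CSF signalling, and Stat6, that of interleukin-4 and interleukin-13, did not pass the test. Stat3 had 36.3 FPKM after 4OHT and 33.8 FPKM with vehicle, a log2 ratio of 0.10. It had the highest level of the 6 STAT genes described in both conditions. Stat6 had 25.4 FPKM after 4OHT and 27.1 FPKM with vehicle, a log2 ratio of -0.09, and q was 1.00 for both genes in the authors' deposited table. Stat6 shares its deposited locus (mm9 chromosome 10, 127080042 to 127103759) with Nab2, which had 8.82 FPKM after 4OHT and 7.999 FPKM with vehicle. The further STAT genes described had lower levels than these and were not called. Stat2, which acts in type I interferon signalling, had 9.34 FPKM after 4OHT and 10.02 FPKM with vehicle. Stat4, which follows interleukin-12, had 14.6 FPKM after 4OHT and 12.9 FPKM with vehicle. Stat5b, Stat5a and Stat3 are neighbours on mm9 chromosome 11, between 100642045 and 100800825, with gaps of 8765 bases between the Stat5 rows and 1640 bases between Stat5a and Stat3.

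**Figure D1:**
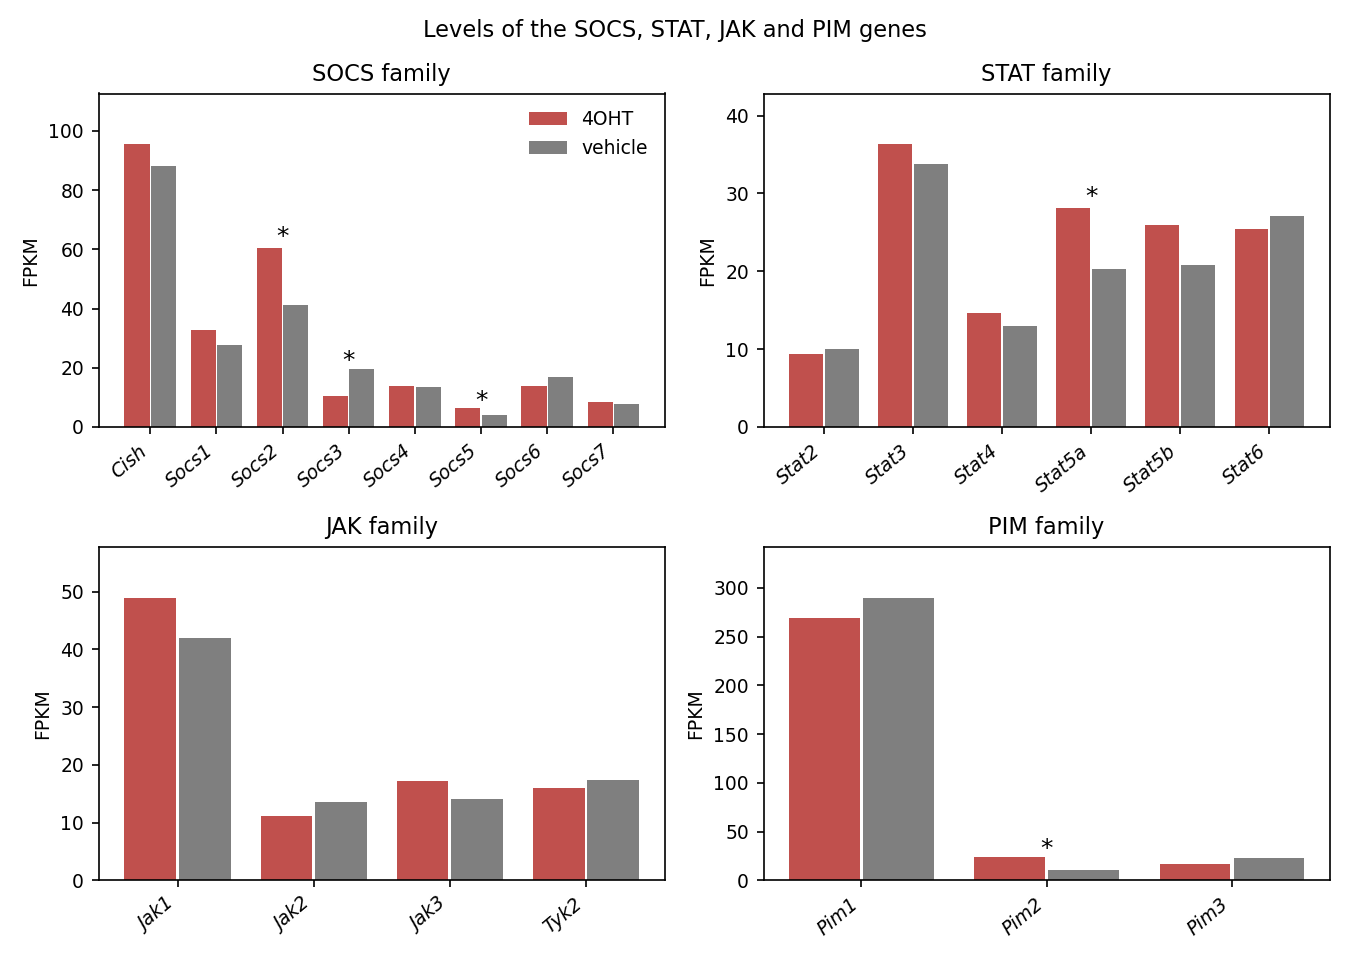
FPKM of the SOCS, STAT, JAK and PIM genes described in 4OHT cells (left bar) and vehicle cells (right bar), 1 value per bar, with an asterisk where q was under 0.05 in the authors' deposited table. Socs2, Socs5, Stat5a and Pim2 stand higher and Socs3 lower after 4OHT, and Cish and Pim1 hold the highest bars of their families.

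The feedback inhibitors moved in different directions. Socs3, which binds gp130 and the G-CSF receptor and blocks the attached JAKs, fell to 10.6 FPKM after 4OHT, against 19.5 FPKM with vehicle. Its log2 ratio was -0.88 and its q of 0.00165 is the smallest in the authors' deposited table, shared by 363 tested rows. The 4OHT value was the lowest of the 10 genes in that condition. Socs3 stood above 39.1% of rows of at least 1 FPKM after 4OHT and above 56.7% of them with vehicle. By the size of its log2 ratio Socs3 was number 481 of those 10989 rows.

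Socs2, best known as the brake on growth hormone signalling, rose to 60.5 FPKM after 4OHT, against 41.2 FPKM with vehicle. Its log2 ratio was 0.55, with q = 0.0111 in the authors' deposited table. Socs1, which inhibits JAKs directly and restrains interferon signalling, had 32.7 FPKM after 4OHT and 27.6 FPKM with vehicle (q = 0.822). Cish, a STAT5 target whose product CIS competes for STAT5 docking sites, had 95.5 FPKM after 4OHT and 88.0 FPKM with vehicle (q = 1.00). Cish was the most abundant SOCS family transcript in both conditions, at 39.6% of summed FPKM of the 8 genes after 4OHT and 40.4% with vehicle. Socs2 took 25.1% of that sum after 4OHT and 18.9% with vehicle, and Socs3 took 4.39% after 4OHT and 8.93% with vehicle. The ratio of Socs2 to Socs3 FPKM was therefore 5.72 after 4OHT and 2.12 with vehicle.

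The family members outside the 10 added 1 more change. Socs5, an inhibitor linked to interleukin-4 and EGF receptor signalling, rose to 6.22 FPKM after 4OHT, against 3.87 FPKM with vehicle (q = 0.0130 in the authors' deposited table). Socs4 had 13.8 FPKM after 4OHT and 13.3 FPKM with vehicle, and Socs6 had 13.7 FPKM after 4OHT and 16.7 FPKM with vehicle. Socs7 had 8.30 FPKM after 4OHT and 7.58 FPKM with vehicle, and none of these passed the test. Of the 8 family genes, 2 rose, 1 fell and 5 were not called, against 2.7% higher and 3.1% lower among the tested rows of at least 1 FPKM. The summed SOCS level was 241 FPKM after 4OHT and 218 FPKM with vehicle.

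Pim1 was the most abundant of the 10 genes in both conditions. It had 269 FPKM after 4OHT and 290.1 FPKM with vehicle, a log2 ratio of -0.11 that did not pass (q = 1.00 in the authors' deposited table). Its paralog Pim2, a STAT target and survival kinase as well, rose to 24.3 FPKM after 4OHT, against 10.8 FPKM with vehicle (2.25-fold, q = 0.00165). Pim3 had 17.0 FPKM after 4OHT and 23.1 FPKM with vehicle and was not called (q = 0.143). Pim1 exceeded Pim2 by 11.1-fold in FPKM after 4OHT and by 26.8-fold with vehicle, and the summed level of the 3 kinases was 310.1 FPKM after 4OHT and 324 FPKM with vehicle.

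**Figure D2:**
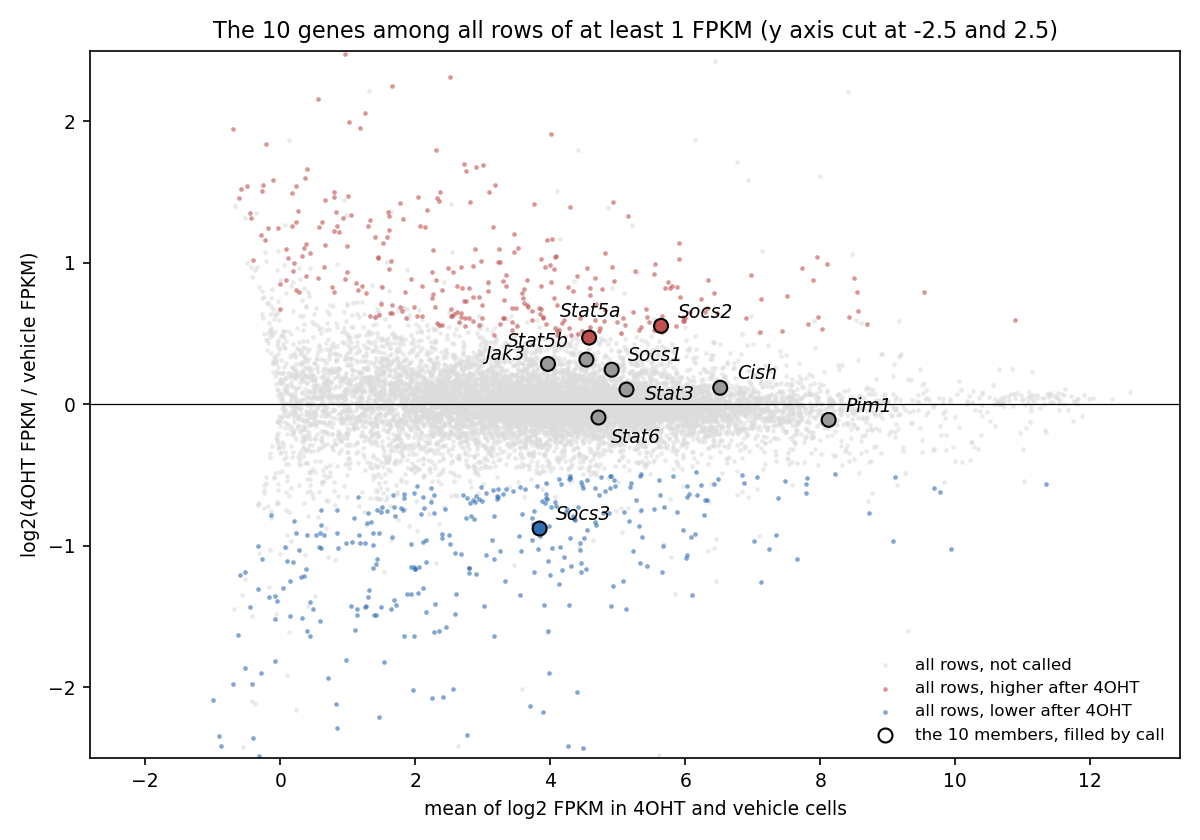
Log2 ratio of 4OHT over vehicle FPKM (y axis) against the mean log2 FPKM of both conditions (x axis) for rows of at least 1 FPKM and above 0 in both, coloured by the authors' call, with the 10 genes as outlined circles. Socs3 at -0.88 lies with the rows called lower, Socs2 at 0.55 and Stat5a at 0.47 lie at the inner edge of the rows called higher, and the other 7 lie within the uncalled rows.

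The uncalled genes lay below the sizes of change that were called at similar levels. Of the 10 genes, 9 were between 10 and 100 FPKM in the higher condition, where 4.7% of 5916 tested rows were called. The smallest change called there was that of Stat5a, at 0.47 on the log2 scale or 1.39-fold. No row was called among the 284 with a log2 ratio of 0.3 to 0.4 in size, 7 of 149 were called from 0.4 to 0.5, and 58 of 84 from 0.5 to 0.6. The 6 uncalled genes of that range had log2 ratios between -0.09 and 0.32. Pim1, at -0.11, lies above it, among 1076 tested rows of at least 100 FPKM, of which 4.83% were called, the smallest change called being 0.49 in size. Changes of the size seen in these 7 genes were thus not detectable at their levels, and their absence is not shown. The authors' deposited table also holds a second mark for differential expression, given to 629 rows (5.26% of those tested), all with q under 0.05 and at least 1.5-fold. Of the 10 genes Socs3 alone carries it, since Socs2 and Stat5a fall short of that fold.

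**Figure D3:**
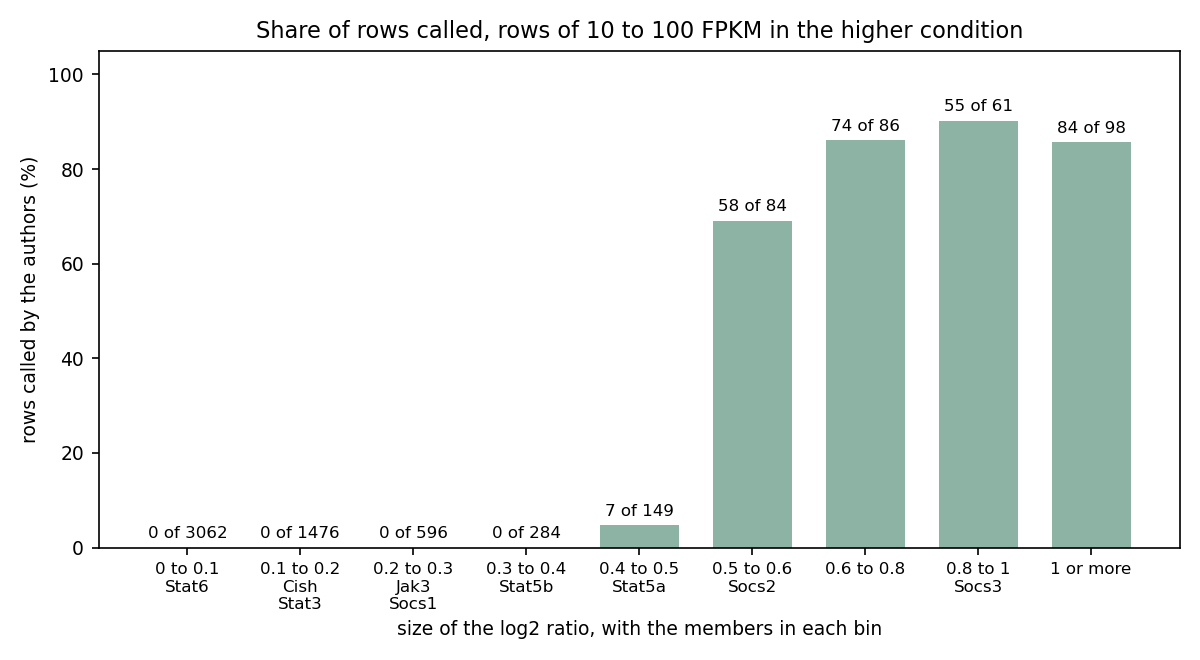
Percent of tested rows called by the authors (y axis) in bins of the size of the log2 ratio (x axis), for rows of 10 to 100 FPKM in the higher condition, with the number called of all rows above each bar and the names of the 9 genes of that level under their bin. Stat5a sits in a bin with 7 of 149 rows called, Socs2 in one with 58 of 84 and Socs3 in one with 55 of 61, and the others in bins with none.

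The wider pathway was described by 10 lists of textbook genes. Without the 10 genes above they hold 107 genes, of which 66 reached 1 FPKM. Of these 66, 4 rose and 5 fell, 13.6% in all, against 5.8% of tested rows of at least 1 FPKM. The lists overlap and were not tested as sets. They were chosen with earlier results of these data known, so the 2 shares do not compare an independent set with the table.

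Receptor chains held 3 falls and no rise among 22 measured genes, against 3.1% lower and 2.7% higher among tested rows of at least 1 FPKM. The list's median log2 ratio was -0.07, and its sign turned, to 0.026, without the filter on level. Il4ra, the interleukin-4 receptor chain that recruits STAT6, fell to 26.1 FPKM after 4OHT, against 53.6 FPKM with vehicle. Il2ra, the alpha chain of the interleukin-2 receptor and a STAT5 target, fell to 11.4 FPKM after 4OHT, against 23.2 FPKM with vehicle. Both had q = 0.00165 in the authors' deposited table. Ifngr1, the ligand-binding chain of the interferon-gamma receptor, fell to 70.6 FPKM after 4OHT, against 104 FPKM with vehicle (q = 0.0139). Lepr, the leptin receptor, lies under 1 FPKM and outside the 22, and was named after its values were seen. It fell to 0.283 FPKM after 4OHT, against 0.678 FPKM with vehicle.

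The receptor for the interleukin-3 in the medium was looked at after its values were seen, and none of its chains was called. Il3ra had 44.7 FPKM after 4OHT and 50.98 FPKM with vehicle (q = 0.964), and Csf2rb, the shared beta chain, had 75.8 FPKM after 4OHT and 86.5 FPKM with vehicle (q = 0.946 in the authors' deposited table). Csf2rb2, the second mouse beta chain, which serves interleukin-3 alone, had 31.5 FPKM after 4OHT and 25.9 FPKM with vehicle (q = 0.543). The interleukin-3 gene itself was listed at 0 in both conditions. Among 7 measured cytokine genes 2 rose and none fell, against 2.7% higher and 3.1% lower among tested rows of at least 1 FPKM. Il15, a gamma chain cytokine, rose to 2.89 FPKM after 4OHT, against 1.05 FPKM with vehicle (q = 0.00806), and Il6, which signals through gp130 and STAT3, rose to 10.1 FPKM after 4OHT, against 5.13 FPKM with vehicle (q = 0.00569). None of 13 other negative regulators was called, where 5.8% of tested rows of that level were, and their median was 0.04. The most abundant of them, the phosphatase genes Ptpn6 and Ptpn2, had 91.97 and 91.9 FPKM after 4OHT, and 73.7 and 78.6 FPKM with vehicle.

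The counts of the target lists below stand against 5.8% of tested rows of at least 1 FPKM, and whether the lists differ from each other was not tested. Of 13 measured STAT5 target genes, which include 5 of the 10 genes studied, 2 rose (Socs2 and Pim2), 2 fell (Socs3 and Il2ra) and 9 were not called, with a median of 0.01. Of 11 measured STAT3 target genes, which include 3 of the 10 genes studied, 3 were lower and 0 higher by the same call, and 8 were not called. The list median was -0.43, which is the value of Bcl3. Bcl3 was not called, with 1.86 FPKM after 4OHT and 2.86 FPKM with vehicle. That median was -0.20 with a pseudocount of 5 and -0.24 without the filter on level. Those that fell were Socs3, Il4ra and Hp, the gene of the acute phase protein haptoglobin, which fell to 8.94 FPKM after 4OHT, against 27.2 FPKM with vehicle (q = 0.00165 in the authors' deposited table). Several genes of that list, Hp among them, are also expressed by maturing myeloid cells. Of 7 late neutrophil markers 2 reached 1 FPKM, and these were lower after 4OHT as given above. The part of that shift in the values of this list was not tested. Of 5 measured STAT6 target genes 2 fell, Il4ra and Arg1. Arg1, which encodes arginase 1, fell to 2.66 FPKM after 4OHT, against 5.96 FPKM with vehicle (q = 0.00310). Mrc1, under 1 FPKM and outside the 5, was named after its values were seen and rose to 0.499 FPKM after 4OHT, against 0.185 FPKM with vehicle. The median of the STAT6 list was 0.12, which is the value of Cish, and Cish and Socs1 are both among the 10 genes studied. Ccl24, which was not called, had 1.04 FPKM after 4OHT and 0.532 FPKM with vehicle, so it reached 1 FPKM after 4OHT only. Without the filter on level the STAT6 median was 0.06.

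**Figure D4:**
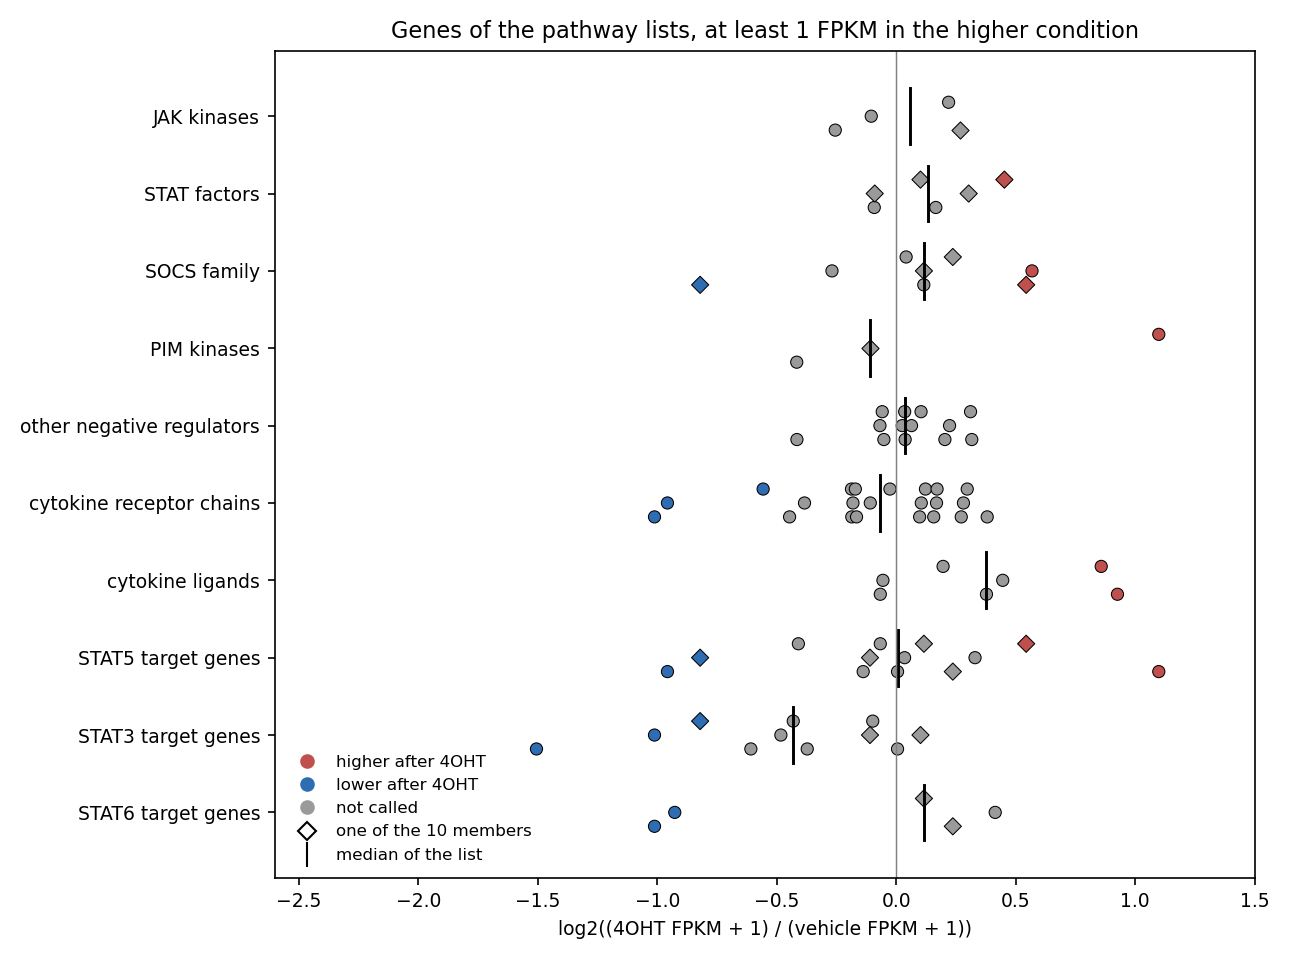
Log2((4OHT FPKM + 1)/(vehicle FPKM + 1)) of each gene of at least 1 FPKM in 10 pathway lists, coloured by the authors' call, with diamonds for the 10 genes and a black line at each list's median. The STAT3 target list has its median at -0.43, the value of the uncalled Bcl3, with 3 genes called lower and 8 not called. The STAT5 target list has called genes on both sides of 0.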

How the data were processed

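RNA sequencing covered 1 4OHT sample and 1 vehicle sample, each joining 2 replicates per its title, grouped by the labels' treatment. Per the labels' protocols, RNA was column-purified with DNase and libraries were made with an Illumina TruSeq kit. Strand setting and annotation are not stated. Build mm9 and the tools Cuffdiff 2.0.2, Bowtie2 2.0.0.7 and CASAVA 1.8.2 are listed, per the submitters' processing notes, with no role. Per the file headers, the authors deposited FPKM values, a test score, p-values and q-values, and a linear fold ratio; the score and the ratio were not used. Of the rows, 11953 were tested by the authors. No counts are given, so depth is unknown and no interval is possible.

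Ratios were computed from FPKM with Python 3.11.15 and pandas 2.3.3, without a pseudocount for single genes and with a pseudocount of 1 for medians. No test was run here, since 1 value per condition gives no spread. A gene was called at status OK and q under 0.05, adjusted by the authors over the whole table. List members counted as measured at 1 FPKM or more. Named were the 10 genes, their JAK, STAT, SOCS and PIM paralogs (some genes of the pathway and marker lists are not reported here), called measured genes of each list, and otherwise its 2 most abundant genes. The 10 genes and the lists were chosen with earlier results of these data known. Calling and motif steps were tested on simulated data. Promoter sequences are from RefSeq, build GRCm38.p6, and loci are those deposited on mm9, with starts counted from 1.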

Additional observations from a re-analysis of the deposited data

How the results depend on the processing

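Of the 10 genes, 3 were called at q under 0.05, 1 (Socs3) at q under 0.01, and 4 at an unadjusted p under 0.05, where Stat5b joined. By the authors' second mark, which needs at least 1.5-fold and was added as an alternative after seeing the data, 1 of the 10 (Socs3) was called. Among the other pathway genes the count was 9 at q under 0.05 and 23 at an unadjusted p under 0.05, where 12.3% of all tested rows pass. Under 5 alternatives for each of the 10 log2 ratios (pseudocounts of 0.1 and 1, and 3 scalings), none of 50 values changed sign and the largest shift was 0.058. The median of all rows of at least 1 FPKM was 0.00 on the log2 scale as deposited. The median of the receptor chains turned to 0.026 without a filter on level, the cause being the 13 receptor genes under 1 FPKM that then enter, and that of the STAT3 targets was -0.20 with a pseudocount of 5 and -0.24 without that filter. No paired analysis was possible because each condition has 1 column of values, and no replicate could be left out. Depth is unknown, and the table called no change under 0.47 on the log2 scale between 10 and 100 FPKM and none under 0.49 from 100 FPKM.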
